A study of Mus musculus with 12 samples.

Results

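Regulators of G protein signalling (RGS proteins) are the brakes of G protein-coupled receptors. A ligand-bound receptor loads GTP onto a G protein alpha subunit, the alpha and the beta-gamma subunits then signal separately, and the RGS domain speeds the alpha subunit's hydrolysis of GTP, which ends the signal. In T cells the receptors for chemokines and for sphingosine-1-phosphate work largely through alpha subunits of the Gi class, so RGS proteins set how long a cell answers the cues that move it between thymus, blood, spleen and gut. The 10 genes described here are Rgs1, Rgs2, Rgs3, Rgs9, Rgs10, Rgs11, Rgs14, Rgs16, Rgs18 and Rgs19. They were taken by name from the 26629 genes of the deposited table of normalised values, in all 12 libraries, and all 10 passed the filter on low counts in each comparison.

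The libraries came from C57BL/6 mice in 4 groups of 3, with 40000 cells of each population sorted. Every mouse carried the floxed lrf alleles (lrffl/fl). LRF, the protein made from Zbtb7a, is a zinc finger repressor. Controls lacked the Cre (Cd4 Cre-), and the knockouts (KO, Cd4 Cre+) carried it, so deletion starts at the thymocyte stage that turns on Cd4 and is not limited to the cells that were sorted. Precursors of intraepithelial lymphocytes (IELp) were sorted from the thymus of both genotypes as TCRb+ CD4- CD8a- cells that were CD5hi, CD122+, H-2Kb+, CD44- and PD-1hi. CD8aa cells, gated as CD45+ TCRb+ CD4- CD8a+ CD8b-, came from the intraepithelial lymphocytes (IEL) of control mice and from the spleen of KO mice. Genotype and tissue therefore cannot be told apart in any comparison between these 2 CD8aa groups, and control splenocytes and KO IEL were not analysed here. The labels used here give neither age nor sex. The labels do not say that replicates came from separate animals, so p-values measure the spread between these samples, which may be technical.

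Depth was between 13432598 and 19947734 counts assigned to genes per library. Levels are given in CPM, the counts of a gene per 1000000 counts over all genes of its library. Order and overlap of groups are read from CPM. The edgeR fold changes use a further scaling of the libraries (TMM), so they can differ from ratios of mean CPM. For Rgs1 in IEL against control IELp the ratio of means was 376 and the edgeR fold 442. Zbtb7a was 75.4 ± 6.27 CPM in control IELp and 45.5 ± 4.66 in KO IELp (SD, n = 3), and 111 ± 8.91 in control IEL against 61.3 ± 2.13 in KO splenocytes. Each KO library lay below each control library of its pair (exact permutation test, two-sided p = 0.1, the smallest that 3 against 3 allows). All 13 T cell markers had counts in every group. Cd8a was at 18.7 and 46.5 CPM in control and KO IELp, against 2508 in IEL and 838 in splenocytes. Cd8b1 was at 0.278 CPM in IEL and 3.54 in splenocytes. Summed B cell markers were between 95.0 and 113 CPM in splenocytes and at most 61.3 elsewhere, and erythroid markers at most 10.3. Myeloid markers summed to between 864 and 1025 CPM in IEL, of which Fcer1g made up 879 on average, with Adgre1, C1qa, C1qb, Cd14, Csf3r and S100a8 at 0. In splenocytes they summed to between 293 and 308 CPM, and all 11 had counts. Of 7 tested there, 5 were higher and 2 lower than in IEL, and all 7 were higher than in KO IELp. The part of myeloid RNA in the levels of the RGS genes was not tested. Of 9 mast cell markers, all but Cpa3, Kit and Mcpt8 were at 0 in every group.

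To show the DNA in front of the members, promoter sequences were read from RefSeq (GRCm38.p6). These were the 250 bases before each annotated start, on the gene's strand, 5′ to 3′. Of the 10 genes, 6 had an entry (Rgs2, Rgs3, Rgs9, Rgs10, Rgs16 and Rgs19), with 9 start sites in all. The 4 sequences below are shown because the levels of these genes differed at least 4-fold between groups. They are Rgs2 (chr1:144004150-144004399, minus strand), Rgs16 (chr1:153740103-153740352, plus strand), Rgs9 (chr11:109298182-109298431, minus strand) and Rgs10 (chr7:128418173-128418422, minus strand). Capitals mark matches to GGGCGGGG, the core bound by KLF and SP zinc finger factors, on either strand.
Rgs2: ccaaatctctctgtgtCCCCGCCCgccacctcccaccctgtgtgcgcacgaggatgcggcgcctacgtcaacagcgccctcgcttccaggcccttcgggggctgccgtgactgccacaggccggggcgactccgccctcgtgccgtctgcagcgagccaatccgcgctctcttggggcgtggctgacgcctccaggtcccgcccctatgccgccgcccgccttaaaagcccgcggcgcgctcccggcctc
Rgs16: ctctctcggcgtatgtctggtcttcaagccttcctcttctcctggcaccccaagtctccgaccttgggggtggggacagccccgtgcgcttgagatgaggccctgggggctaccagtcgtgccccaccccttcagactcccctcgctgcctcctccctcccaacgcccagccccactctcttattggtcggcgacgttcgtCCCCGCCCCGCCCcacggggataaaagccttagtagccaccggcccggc
Rgs9: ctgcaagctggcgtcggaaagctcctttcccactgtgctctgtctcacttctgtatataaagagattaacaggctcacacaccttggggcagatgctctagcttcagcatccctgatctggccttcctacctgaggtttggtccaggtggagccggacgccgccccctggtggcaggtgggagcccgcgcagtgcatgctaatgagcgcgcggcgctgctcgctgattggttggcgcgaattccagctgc
Rgs10: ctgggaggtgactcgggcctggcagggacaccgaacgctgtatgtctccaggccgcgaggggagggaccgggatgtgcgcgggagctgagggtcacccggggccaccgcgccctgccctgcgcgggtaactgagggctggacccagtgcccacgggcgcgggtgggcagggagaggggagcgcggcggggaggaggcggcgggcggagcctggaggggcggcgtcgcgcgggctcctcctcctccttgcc
In Rgs2 the match lay 234 bases before the start, and in Rgs16 a pair of overlapping matches lay 49 and 44 bases before it. In Rgs19 one site lay 57 bases before one start and 224 before another. Among 32851 mouse promoter windows of the same length, 16.1% held this motif. TGANTCA (AP-1, 6.75% of windows), TGACGTCA (the cyclic AMP response element, 1.55%) and TGTGGT (the RUNX core, 14.05%) were searched on both strands and had no match in the 9 windows. GC content was 72.4% for Rgs2, 66.4% for Rgs16, 76.4% for Rgs10 and 59.6% for Rgs9, against a median of 52.4% over all windows. A match describes these letters only.

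The 10 genes differed in which population held the highest level. Rgs1, Rgs2 and Rgs9 were highest in control IEL. By mean CPM, Rgs3, Rgs11, Rgs14, Rgs18 and Rgs19 were highest in KO splenocytes. There the libraries of Rgs3, Rgs14 and Rgs18 overlapped with the next group. For Rgs3 and Rgs14 that group was IEL, and the edgeR log2 fold changes of splenocytes against IEL went the other way. They were -0.12 and -0.08, and neither passed. Rgs10 and Rgs16 were highest in control IELp, and none of the 10 was highest in KO IELp. For Rgs9 and Rgs16 no library overlapped in CPM with a library of the neighbouring group at any step of the order. Overlap after the scaling used for the tests was not examined. Separation of a pair of groups was common among all tested genes. In KO against control IELp 29.7% did not overlap, and in IEL against control IELp 70.9%. The share was 66.2% in splenocytes against IEL and 56.4% in splenocytes against KO IELp. Of the 10 members, 6, 9, 8 and 8 did not overlap in these comparisons. The share separate at every step of the order was not counted over all genes.

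Counts of members past an edgeR adjusted p of 0.05 are read against the share of all tested genes that passed. Between KO and control IELp, 2 members were higher, 2 were lower and 6 did not pass, where 13.1% of all genes passed. Between control IEL and control IELp, 5 were higher and 4 lower, against 64.8% of all genes. Between KO splenocytes and control IEL, 4 were higher and 4 lower, against 58.2% of all genes. Between KO splenocytes and KO IELp, 5 were higher and 3 lower, against 45.0% of all genes. The medians of the 10 log2 fold changes were 0.12, 0.28, -0.10 and 0.32 in these comparisons, beside -0.01, -0.01, 0.00452 and -0.00296 for all genes. These comparisons share groups with each other and are not independent.

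**Figure D1:**
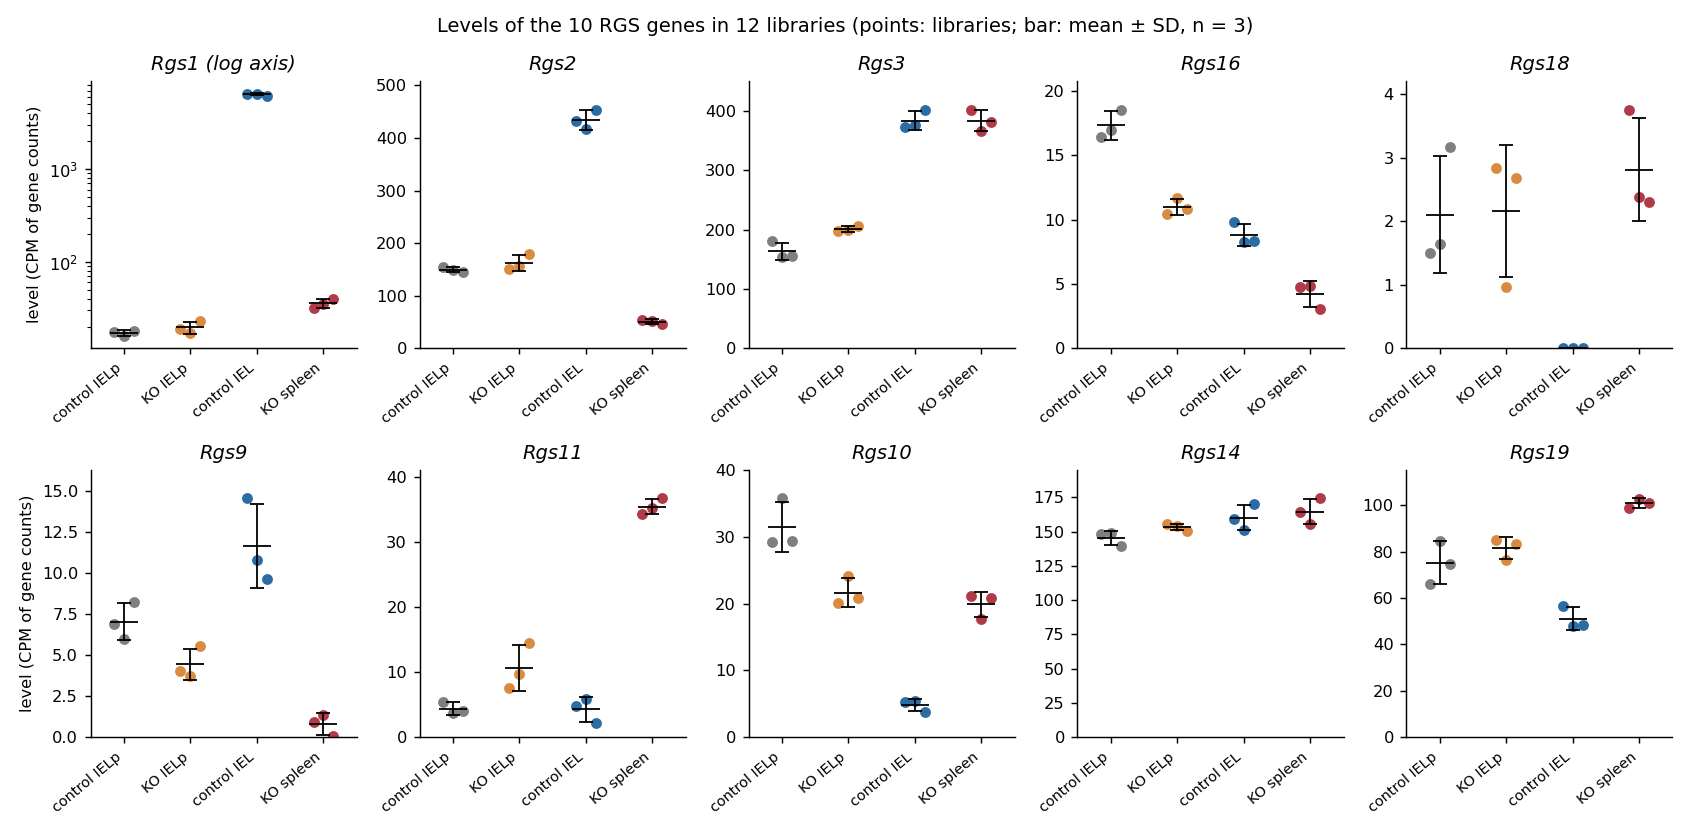
Level of each RGS gene (y axes, CPM; linear from 0 except for Rgs1, which has a log axis) in control IELp, KO IELp, control IEL and KO splenocytes (x axes). Points are the 3 libraries of a group, and bars show mean ± SD; Rgs1 stands at 6413 CPM in control IEL, Rgs11 at 35.4 in KO splenocytes, and Rgs18 at 0 in control IEL.

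The R4 subfamily holds small RGS proteins, many of which consist of little beyond the RGS domain. Among the members with counts in every group, Rgs1, an R4 protein, had the widest range of mean CPM (376-fold). Rgs9 followed (14.6-fold), and the R4 protein Rgs16 spanned 4.12-fold. Rgs1, which dampens chemokine receptor signals in lymphocytes, was at 17.5, 15.7 and 18.0 CPM in the control IELp libraries and at 18.6, 17.2 and 23.0 in KO IELp. It stood at 6492, 6544 and 6205 CPM in control IEL and at 31.9, 35.4 and 39.5 in KO splenocytes. The IEL libraries lay far above all others, the splenocytes lay above both precursor groups, and the precursor groups overlapped. Rgs1 was 442-fold higher in IEL than in control IELp (log2 fold change 8.79, SE 0.08, edgeR adjusted p = 3.67e-13). In KO splenocytes it was 197-fold lower than in IEL (edgeR adjusted p = 2.24e-11) and 1.95-fold higher than in KO IELp (edgeR adjusted p = 4.55e-05). In these sorted bulk samples a lower share of cells with a transcript and less transcript per cell cannot be told apart.

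Rgs2, which acts mainly on Gq-class alpha subunits, was at 155, 149 and 146 CPM in control IELp and at 152, 156 and 180 in KO IELp. Its IEL libraries were at 432, 417 and 454 CPM, and its splenocyte libraries at 54.8, 51.5 and 47.0. IEL libraries were the highest and splenocyte libraries the lowest, with the overlapping precursors between them. Rgs2 was 3.40-fold higher in IEL than in control IELp (log2 fold change 1.77, SE 0.06, edgeR adjusted p = 2.07e-09). It was 2.94-fold lower in KO splenocytes than in KO IELp (log2 fold change -1.55, SE 0.08, edgeR adjusted p = 7.20e-09). The gap between splenocytes and IEL was 9.22-fold (edgeR adjusted p = 7.93e-10).

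Early response genes, which tissue dissociation can induce, were together also highest in IEL, as Rgs1 and Rgs2 were. In splenocytes their sum was lowest, as Rgs2 was, while Rgs1 was higher there than in the precursors. The summed level of 14 early response genes was 1752 to 1957 CPM in control IELp, 1769 to 1881 in KO IELp, 6321 to 6597 in IEL and 940 to 988 in splenocytes, with all 14 genes detected in every group. Of the 13 tested between IEL and control IELp, 9 were higher and 2 lower, where 64.8% of all genes passed. Fos was at 801 ± 27.1 CPM in IEL against 43.3 ± 17.1 in control IELp (SD, n = 3), and Junb at 2376 ± 138 against 197 ± 19.7. Egr1 went the other way, at 50.0 ± 4.04 CPM in IEL against 298 ± 13.1, as did Nr4a1, at 69.3 ± 4.43 against 483 ± 37.3. The part of dissociation in the Rgs1 and Rgs2 levels was not tested.

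Markers of gut epithelium also stood higher in IEL. Their sum was 520, 574 and 714 CPM in the 3 IEL libraries against at most 75.3 in the other groups, with 11 of 12 markers detected and Muc2 at 0. Cdh1, the adhesion protein E-cadherin, made up most of it, at 369, 421 and 400.3 CPM in the IEL libraries, followed by Epcam at 123, 127 and 189. The sum was already 67.1 to 75.3 CPM in control IELp, where Krt8, Krt19, Krt20, Fabp1 and Muc2 were at 0. All 9 markers tested were higher in IEL than in control IELp, where 64.8% of all genes passed. The third IEL library had the highest sum, and without it the log2 fold change of Rgs1 in IEL against control IELp was 8.82 (edgeR adjusted p = 2.11e-17). The first and second IEL libraries, at 520 and 574 CPM of these markers, stayed in that fit. It therefore cannot show the part of epithelial RNA. The part of epithelial RNA in the levels of the RGS genes was not tested.

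Rgs3, which acts on Gi and Gq alpha subunits and has long splice forms with added domains, was higher in both CD8aa groups than in the thymic precursors. It was at 180, 155 and 156 CPM in control IELp and 198, 199 and 206 in KO IELp. It was at 373, 376 and 401 CPM in IEL and 402, 367 and 382 in KO splenocytes. Both CD8aa groups lay above both precursor groups, and overlapped with each other. Rgs3 was 1.25-fold higher in KO than in control IELp (log2 fold change 0.32, SE 0.07, edgeR adjusted p = 0.00497). It was 2.75-fold higher in IEL than in control IELp (edgeR adjusted p = 3.51e-08) and 2.06-fold higher in KO splenocytes than in KO IELp (edgeR adjusted p = 2.22e-09). The difference between splenocytes and IEL did not pass (log2 fold change -0.12, SE 0.06, edgeR adjusted p = 0.112).

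Rgs16, an R4 protein that limits migration towards chemokines and is induced when lymphocytes are activated, was highest in control IELp, at 16.4, 17.0 and 18.6 CPM. It was at 10.4, 11.7 and 10.8 CPM in KO IELp, 9.83, 8.30 and 8.37 in IEL and 4.76, 4.82 and 3.05 in KO splenocytes. In CPM the groups followed each other without overlap. Rgs16 was 1.55-fold lower in KO than in control IELp (log2 fold change -0.64 with an SE of 0.13, edgeR adjusted p = 0.00457) and 1.67-fold lower in IEL than in control IELp (edgeR adjusted p = 8.87e-04). It was 2.38-fold lower in KO splenocytes than in KO IELp (edgeR adjusted p = 1.74e-04). The difference between the genotypes in its gap between precursors and CD8aa cells did not pass (log2 difference -0.53, SE 0.24, edgeR adjusted p = 0.0762).

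Rgs18, an R4 protein best known from platelets and their precursors, had the lowest mean level per kb of the longest coding transcript among the members, except in KO splenocytes, where Rgs9 was lower. It was at 1.501, 1.65 and 3.17 CPM in control IELp, 2.84, 0.963 and 2.69 in KO IELp, and 3.76, 2.38 and 2.31 in KO splenocytes. No IEL library had a single count, which allows up to 0.0597 CPM over the group (3 counts; counting error only). Rgs18 was thus at least 34.4-fold higher in control IELp, 36.3-fold in KO IELp and 48.4-fold in splenocytes than in IEL. The edgeR adjusted p was 1.12e-04 for control IELp against IEL and 6.50e-05 for splenocytes against IEL. KO and control IELp overlapped (log2 fold change 0.07, SE 0.41, edgeR adjusted p = 0.937).

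Platelet transcripts were present in the splenocyte libraries. The sum of 9 platelet and megakaryocyte markers was 31.8, 43.3 and 1.27 CPM in the 3 splenocyte libraries and at most 0.527 in any other library, with Pf4 and Ppbp at 0 in all precursor and IEL libraries. Rgs18 was at 3.76, 2.38 and 2.31 CPM in the same splenocyte libraries. The part of platelet RNA in its splenocyte level was not tested.

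**Figure D2:**
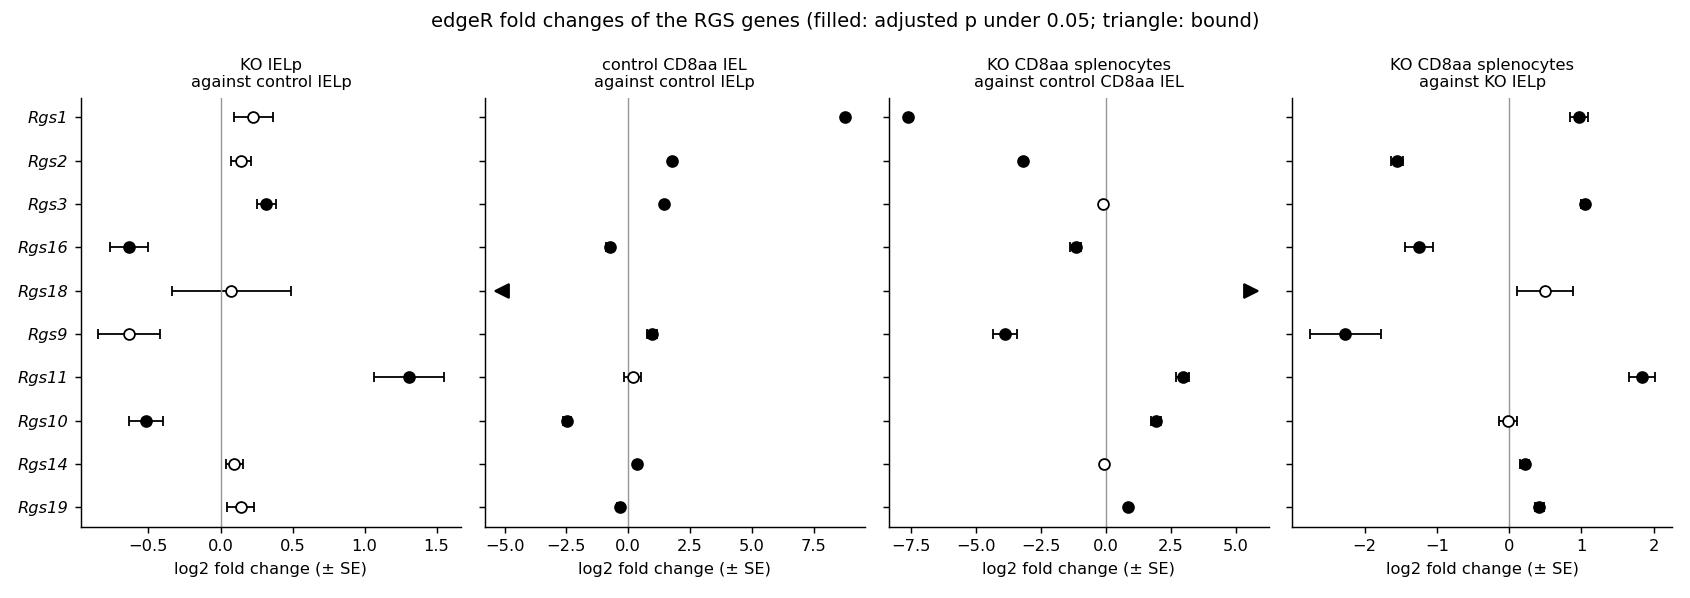
log2 fold change of each RGS gene (x axes, ± SE from edgeR; the scale differs between panels) in the 4 comparisons. Filled points passed an adjusted p of 0.05 and triangles mark the bound for Rgs18, which had no counts in IEL; Rgs11 lies at 1.31 in KO against control IELp, and Rgs1 at 8.79 in IEL against control IELp.

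Rgs9 and Rgs11 belong to the R7 subfamily, whose members are unstable without the beta subunit Gnb5 and are best known from the retina and brain. They took opposite courses here. Rgs9 was at 6.89, 6.00 and 8.25 CPM in control IELp, 4.03, 3.73 and 5.54 in KO IELp, 14.6, 10.8 and 9.67 in IEL, and 0.952, 1.38 and 0.0744 in KO splenocytes. In CPM each group was separate from the next, with splenocytes lowest. Rgs9 was 1.95-fold higher in IEL than in control IELp (log2 fold change 0.96, SE 0.20, edgeR adjusted p = 0.00168). It was 4.82-fold lower in KO splenocytes than in KO IELp (log2 fold change -2.27 with an SE of 0.49, edgeR adjusted p = 0.00209) and 14.7-fold lower than in IEL (edgeR adjusted p = 5.94e-05). These folds rest on 19, 26 and 1 counts in the splenocyte libraries. The log2 fold changes against KO IELp and IEL were -2.83 and -4.43 without the second splenocyte library, and -1.81 and -3.42 without the third. The difference between KO and control IELp did not pass (log2 fold change -0.63, SE 0.21, edgeR adjusted p = 0.0673), but did without the filter on low counts (adjusted p = 0.0464).

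Rgs11 was at 5.46, 3.70 and 3.98 CPM in control IELp and at 7.59, 9.69 and 14.5 in KO IELp. It was at 4.73, 5.86 and 2.173 CPM in IEL and at 34.3, 35.3 and 36.7 in KO splenocytes. Both KO groups lay above both control groups, and the control groups overlapped. Rgs11 was 2.47-fold higher in KO than in control IELp (log2 fold change 1.31, SE 0.24, edgeR adjusted p = 0.00212), the widest change among the members in that comparison. It was 3.58-fold higher in KO splenocytes than in KO IELp (log2 fold change 1.84 with an SE of 0.18, edgeR adjusted p = 2.80e-06) and 7.74-fold higher than in IEL (edgeR adjusted p = 6.54e-06). The difference between control IEL and control IELp did not pass (log2 fold change 0.18 with an SE of 0.35, edgeR adjusted p = 0.663).

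Gnb5, the partner of both, followed Rgs9 in part. It was at 4.70 ± 1.13 CPM in control IELp, 4.19 ± 1.51 in KO IELp, 17.1 ± 2.23 in IEL and 2.35 ± 0.887 in KO splenocytes (SD, n = 3). It was 4.26-fold higher in IEL than in control IELp (edgeR adjusted p = 4.58e-06) and 8.08-fold lower in splenocytes than in IEL (edgeR adjusted p = 4.45e-06). Splenocytes against KO IELp did not pass (log2 fold change -0.75, SE 0.35, edgeR adjusted p = 0.0987).

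Rgs10 and Rgs14 belong to the R12 subfamily, which acts on Gi-class subunits. Rgs10, a compact member, was at 29.2, 35.8 and 29.4 CPM in control IELp, 20.1, 24.1 and 20.8 in KO IELp, 5.22, 5.47 and 3.803 in IEL, and 21.2, 17.7 and 20.8 in KO splenocytes. Control IELp was the highest group, IEL the lowest, and the KO groups overlapped between them. Rgs10 was 5.57-fold lower in IEL than in control IELp (log2 fold change -2.48 with an SE of 0.17, edgeR adjusted p = 3.35e-07) and 3.798-fold higher in KO splenocytes than in IEL (edgeR adjusted p = 7.71e-06). From KO IELp to KO splenocytes the log2 difference was -0.01 (SE 0.12, edgeR adjusted p = 0.944). In KO against control IELp it was 1.43-fold lower (log2 fold change -0.52, SE 0.12, edgeR adjusted p = 0.00974). That call was lost without the second control library (adjusted p = 0.0649) or the first KO library (adjusted p = 0.0511).

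Rgs14, which pairs its RGS domain with a GoLoco motif that holds Gi subunits in the GDP-bound state, varied least. It was at 149, 149 and 140 CPM in control IELp, 155, 154 and 151 in KO IELp, 159, 152 and 170.04 in IEL, and 164, 155 and 174 in KO splenocytes. Libraries of neighbouring groups overlapped except between the 2 precursor groups. The edgeR fits gave log2 fold changes of 0.37 (SE 0.07, adjusted p = 8.37e-04) for IEL and 0.21 (SE 0.06, adjusted p = 0.00815) for splenocytes, each against the precursors of the same genotype. Both calls were lost with limma on CPM, which changes the test, the filter and the scaling together. On the CPM scale the median of all genes was -0.22 in IEL against control IELp and -0.11 in splenocytes against KO IELp, and there limma on log2(CPM + 1) gave Rgs14 0.14 (adjusted p = 0.102) and 0.10 (adjusted p = 0.167).

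Rgs19, of the RZ subfamily, acts on Gi-class subunits and is known from membranes of the secretory pathway. It was at 66.2, 84.6 and 74.7 CPM in control IELp, 85.0, 76.2 and 83.5 in KO IELp, 56.7, 48.1 and 48.5 in IEL, and 98.9, 103 and 101 in KO splenocytes. In CPM splenocytes were the highest group and IEL the lowest, without overlap with the precursors. Rgs19 was 1.34-fold higher in KO splenocytes than in KO IELp (log2 fold change 0.42 with an SE of 0.07, edgeR adjusted p = 2.10e-04) and 1.82-fold higher than in IEL (edgeR adjusted p = 1.43e-05). Against control IELp it was 1.25-fold lower in IEL (log2 fold change -0.33, SE 0.11, edgeR adjusted p = 0.0226). This last call was lost without the second control precursor library (adjusted p = 0.108), the third (0.0514) or the second IEL library (0.0836).

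Per kilobase of the longest coding transcript (GENCODE vM21), the order of the members changed with the population. In control IELp Rgs14 stood at 61.8 ± 2.22 CPM per kb, Rgs19 at 49.7 ± 6.10 and Rgs2 at 49.6 ± 1.65 (SD, n = 3), and the last pair did not differ beyond their spread. In IEL Rgs1 led at 1669.7 ± 47.6 CPM per kb, followed by Rgs2 at 144 ± 6.14 and Rgs3 at 81.6 ± 3.33. In KO splenocytes Rgs3 was at 81.6 ± 3.75, Rgs14 at 69.9 ± 4.01 and Rgs19 at 66.8 ± 1.32 CPM per kb. With the merged length of all exons Rgs1 and Rgs2 remained the first and second in IEL, while Rgs2 came first in control IELp and Rgs19 in splenocytes.

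Rgs1, Rgs2 and Rgs18 lie side by side on chromosome 1 (GRCm38), with Rgs13 and Rgs21 between them. These 5 consecutive protein-coding genes are all on the minus strand and span 776098 bases. Rgs2 (143999338 to 144004161) and Rgs1 (144242296 to 144249242) were the members with the highest level per kb in IEL. Rgs18 (144752683 to 144775435) had no counts there. Rgs13 and Rgs21 had 0 counts in all 12 libraries. Rgs16 lies on the same chromosome, on the plus strand (153740349 to 153745468), outside this row of genes.

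**Figure D3:**
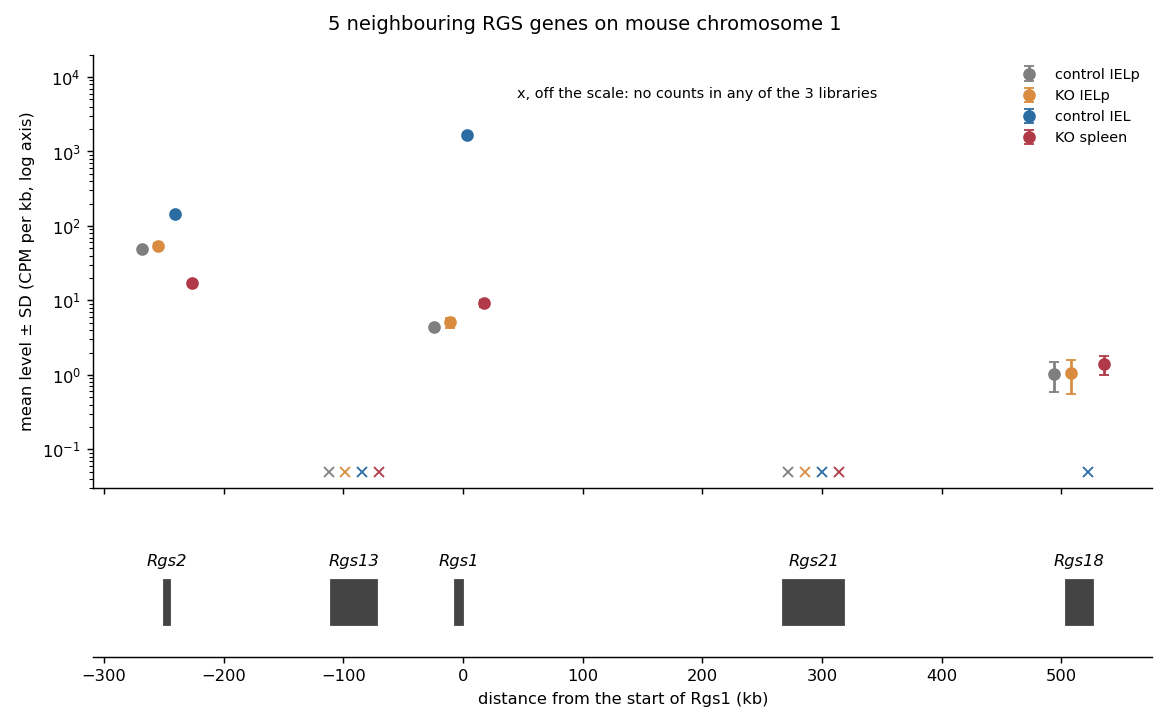
Mean level ± SD (upper y axis, CPM per kb of the longest coding transcript, log axis, n = 3) of 5 neighbouring RGS genes in the 4 groups, above their places relative to the start of Rgs1 (x axis, kb). Rgs1 stands at 1669.7 CPM per kb in control IEL, while crosses, drawn off the scale, mark groups with no counts, which are Rgs13 and Rgs21 in all groups and Rgs18 in control IEL.

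Rgs11 and Rgs16 share sequence with a gene on the other strand, and whether the counting used strand is not given in the sources used here. Rgs11 (chromosome 17, 26202951 to 26211324, plus strand) overlaps Arhgdig over 4836 bases. Arhgdig was at 0.663 ± 0.102 CPM in control IELp, 2.08 ± 0.474 in KO IELp, 0.536 ± 0.428 in IEL and 5.85 ± 0.418 in KO splenocytes (SD, n = 3), so it too was higher in both KO groups. Rgs16 overlaps the antisense gene Gm28513 over 1917 bases. Gm28513 was at 5.57 ± 0.745, 3.07 ± 0.851, 2.36 ± 0.479 and 1.20 ± 0.199 CPM in control IELp, KO IELp, IEL and splenocytes, the same order as Rgs16. Reads of the overlapping genes cannot be told apart, and the level of each may hold reads of the other.

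**Figure D4:**
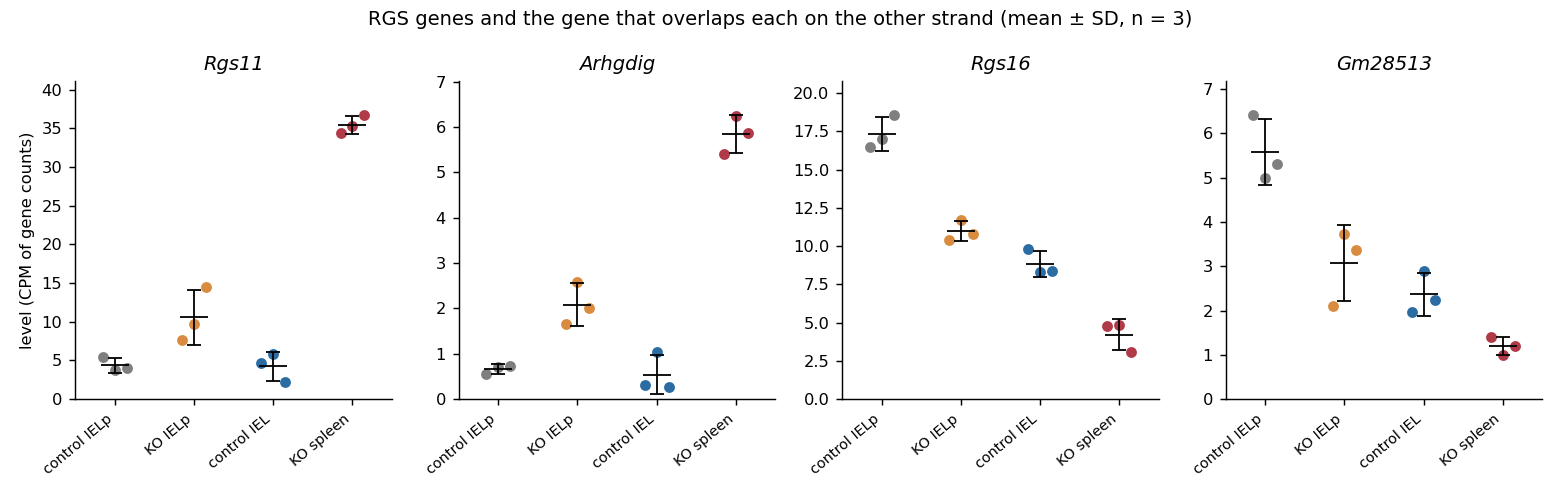
Level (y axes, CPM, from 0) of Rgs11 and Arhgdig, and of Rgs16 and Gm28513, in the 4 groups; points are libraries and bars show mean ± SD (n = 3). In each pair the groups stand in the same order, with KO splenocytes highest for Rgs11 (35.4 CPM) and Arhgdig (5.85) and control IELp highest for Rgs16 (17.3) and Gm28513 (5.57).

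The step from precursor to CD8aa cell was then compared between the genotypes in 1 fit of all 12 libraries, where 46.7% of all genes passed. A step is the difference between separately sorted groups, and descent between them was not traced. Of the members, 4 had a more positive change in the KO, 4 a more negative one and 2 did not pass. The KO step goes to the spleen and the control step to the IEL, so genotype and tissue cannot be told apart. Rgs1 was higher in CD8aa cells in both, by 8.79 on the log2 scale in control and 0.97 in KO, and the 2 steps differed by -7.85 (SE 0.14, edgeR adjusted p = 4.24e-16). Rgs2 was higher by 1.77 in control and lower by 1.55 in KO, a difference of -3.34 (SE 0.11, edgeR adjusted p = 6.47e-13). Rgs9 likewise was higher by 0.96 and lower by 2.27, a difference of -3.24 (SE 0.52, edgeR adjusted p = 8.43e-05). Rgs3 was higher in both and differed by -0.44 (SE 0.09, edgeR adjusted p = 0.00102).

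Among the members with a more positive step in the KO, Rgs10 differed by 2.44 (SE 0.21, edgeR adjusted p = 7.85e-08), Rgs11 by 1.65 (SE 0.40, edgeR adjusted p = 0.00277) and Rgs19 by 0.72 (SE 0.13, edgeR adjusted p = 2.64e-04). Rgs18 passed as well (edgeR adjusted p = 5.39e-05), with a size that depends on the zero counts in IEL. Rgs14 did not pass (log2 difference -0.18, SE 0.09, edgeR adjusted p = 0.120), nor did Rgs16.

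Outside the members, Rgs12 was the one RGS gene of the 12 others listed that had enough counts to test. Rgs12, a long protein with a GoLoco motif, was at 61.9 ± 11.6 CPM in control IELp, 57.9 ± 4.17 in KO IELp, 8.71 ± 3.36 in IEL and 10.05 ± 2.20 in KO splenocytes (SD, n = 3). It was 6.11-fold lower in IEL than in control IELp (edgeR adjusted p = 5.71e-06) and 5.38-fold lower in splenocytes than in KO IELp (edgeR adjusted p = 1.33e-08). Rgs4, Rgs5, Rgs7, Rgs13, Rgs17 and Rgs21 had 0 counts in all libraries.

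Of the alpha subunits on which RGS proteins act, 9 of 13 listed were tested. Counts in this list and those below stand beside the shares of all genes that passed. These were 13.1% in KO against control IELp, 64.8% in IEL against control IELp and 58.2% in splenocytes against IEL. Between KO and control IELp, 1 was higher (Gnas, the stimulatory subunit) and 1 lower (Gnai2, the main Gi subunit of lymphocytes, 852 ± 2.19 against 950.2 ± 37.0 CPM, edgeR adjusted p = 0.0463). Between IEL and control IELp 4 were higher and 4 lower, and between splenocytes and IEL 4 were higher and 3 lower. Gnaq, the class on which Rgs2 acts, was 4.74-fold higher in IEL than in control IELp (5.72 ± 1.85 against 1.42 ± 0.633 CPM, edgeR adjusted p = 3.51e-04) and 7.44-fold lower in splenocytes than in IEL (edgeR adjusted p = 3.34e-04). Gna15, a Gq-class subunit of blood cells, was 9.24-fold higher in splenocytes than in IEL (8.75 ± 1.13 against 0.876 ± 0.336 CPM, edgeR adjusted p = 1.08e-05).

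Among 9 tested beta and gamma subunits, 3 were higher and 6 did not pass in KO against control IELp. Higher were Gnb4 (1.68-fold), Gng2 (1.48-fold) and Gng3 (1.87-fold). Between IEL and control IELp 2 were higher and 4 lower, with Gngt2 at 70.3 ± 4.33 CPM in IEL against 5.26 ± 0.566 (15.6-fold, edgeR adjusted p = 6.31e-10). In KO splenocytes Gngt2 was at 8.11 ± 0.841 CPM, 9.44-fold below IEL (edgeR adjusted p = 8.60e-09).

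Effectors and receptor kinases were read in the same way. Of 9 effectors tested, 1 was higher and 8 did not pass in KO against control IELp. This was Adcy6, an adenylyl cyclase that Gi subunits inhibit, at 35.1 ± 1.18 against 14.3 ± 1.47 CPM (2.49-fold, edgeR adjusted p = 1.91e-06). Adcy6 was at 0.0543 CPM in IEL and 32.5 ± 2.71 in KO splenocytes. Pik3r6, a regulatory subunit of the PI 3-kinase driven by beta-gamma subunits, was at 67.4 ± 8.47 CPM in IEL, 0.172 in control IELp and at 0 in all splenocyte libraries. Its alternative subunit Pik3r5 was 3.72-fold higher in splenocytes than in IEL (175 ± 7.56 against 43.3 ± 5.32 CPM, edgeR adjusted p = 1.13e-07). Among 7 receptor kinases and arrestins tested, 4 were higher in IEL than in control IELp and 3 did not pass. Adrbk2, a receptor kinase, was at 23.8 ± 5.15 CPM in IEL, 0.544 in control IELp and 0.619 in splenocytes.

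The Gi-coupled receptors whose signals RGS proteins shorten differed widely between KO splenocytes and control IEL, where genotype and tissue cannot be told apart. Of 12 tested between these groups, 8 were higher and 4 lower, where 58.2% of all genes passed. S1pr1, the receptor that guides exit into blood, was at 276 ± 16.1 CPM in control IELp, 237 ± 11.3 in KO IELp, 2.27 ± 0.435 in IEL and 385 ± 2.53 in splenocytes. Ccr9, which guides cells to the small intestine, was at 21.2 ± 0.808 CPM in control IELp, 39.1 ± 3.25 in KO IELp, 246 ± 30.7 in IEL and 39.6 ± 3.23 in splenocytes. Gpr18, a receptor of IEL, was at 453 ± 39.8 CPM in IEL against 16.7 ± 1.33 in control IELp.

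Some genes outside the family had profiles close in shape to a member's over the 12 libraries. Likeness is Pearson's r of log2(CPM + 1), a description over libraries that fall into 4 groups, among 9420 genes with at least 10 CPM in a group. It takes no account of the size of the differences. The 3 closest to Rgs1 were Optn (r = 0.9985), Osgin1 (0.9978) and Fasl (0.9977), each highest in IEL. Fasl, the ligand of the death receptor Fas, was at 707 ± 23.6 CPM in IEL and 9.79 ± 1.51 in control IELp. For Rgs2 they were Stard3nl (0.9906), Amz1 (0.9866) and Klrb1 (0.9863). Stard3nl was at 83.1 CPM in IEL and 49.7 in splenocytes, a narrower range than that of Rgs2, at 434 and 51.1. For Rgs9 they were Nr1i3 (0.9679), Pqlc3 (0.9668) and Slc48a1 (0.9601), and for Rgs10 Samhd1 (0.9933), Serpini1 (0.9899) and Tmcc1 (0.9897). Slc48a1 was at 69.1 CPM in IEL and 47.7 in splenocytes, where Rgs9 was at 11.7 and 0.801. Abtb2 (0.9725), Prdm11 (0.9678) and Micall1 (0.9672) were closest to Rgs11, and Syne3 (0.9898), AI597479 (0.9885) and Tyms (0.9837), the thymidylate synthase of dividing cells, to Rgs16. Tyms was at 43.5 ± 3.98 CPM in control IELp, 25.1 ± 3.12 in KO IELp, 20.9 ± 2.16 in IEL and 12.4 ± 2.85 in splenocytes (SD, n = 3).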

How the data were processed

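RNA from 12 sorted populations was made into SMARTer Ultra Low Input and Nextera XT libraries and sequenced as paired reads of 76 bases, per the labels' protocols. The authors deposited raw read counts per gene and a table of the same counts as CPM (their FPM), scaled to the sum over genes, per the file headers and the values: multiplied back, 100% of values were whole reads within 0.001. The submitters' processing notes name bcl2fastq 2.17, Trimmomatic, STAR, HTSeq and DESeq2 with mm10. Neither the annotation nor the use of strand is given in the sources used here. Rows that name no gene, which hold 58.8 to 61% of reads, were left out.

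Genes were filtered with filterByExpr, scaled by TMM and tested with edgeR 4.0.16 (quasi-likelihood, two-sided, R 4.3.3) on the 6 libraries compared, with Benjamini-Hochberg adjustment over all genes and a threshold of 0.05. The genotype comparison of the steps used all 12. The standard error is the log2 fold change divided by the root of F. The procedure was also run on simulated data with fewer changed genes than passed in any comparison here. That run therefore does not test it at these shares. Alternatives were RLE factors, DESeq2 1.42.0, no filter, a replicate block, limma 3.58.1 on log2(CPM + 1) and log2(CPM + 0.1) for genes with at least 1 CPM in 3 libraries, 1 fit of all libraries, and leaving out each library. Replicate libraries differed by more than sampling noise (chi-square per degree of freedom of at least 4.30).

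Named were all members; from each list up to 3 genes with the smallest adjusted p and at least 5 CPM in the higher group (or the most abundant where none passed), a few of which are printed; Zbtb7a; and, for members at 10 CPM or more that differed 4-fold, the 3 most alike genes. Genes that overlap a member, or lie between members on the chromosome, and single marker genes were named after their values were seen. The members and lists were chosen with earlier results of these data known. Positions are GENCODE vM21 (GRCm38) and promoters RefSeq (GRCm38.p6).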

Additional observations from a re-analysis of the deposited data

Results flagged for a closer look

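For 8 of the 10 members, the log2 gap between precursors and CD8aa cells differed between the KO (thymus and spleen) and the control (thymus and IEL). This was a test of the difference itself, with edgeR on all 12 libraries. The difference was -7.85 for Rgs1, -3.34 for Rgs2, -3.24 for Rgs9 and -0.44 for Rgs3, where the KO step was the more negative. It was 2.44 for Rgs10, 1.65 for Rgs11, 0.72 for Rgs19 and 8.52 for Rgs18, where the KO step was the more positive. The value for Rgs18 depends on the prior count of the fit, since no IEL library had a count, and is no estimate of size. Among all genes 46.7% passed the same test, and genotype and tissue cannot be told apart in it.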

How the results depend on the processing

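Over all alternatives the number of members called stayed at 3 to 5 for KO against control IELp (4 in the fit reported), 8 to 9 for IEL against control IELp (9), 8 for splenocytes against IEL, 7 to 8 for splenocytes against KO IELp (8) and 8 for the difference of the steps. Of 521 alternative values of the 37 called member results, 512 kept direction and call, 9 lost the call and 0 reversed. The lost calls are those of Rgs10, Rgs14 and Rgs19 given with their levels. Those of Rgs14 were lost with limma, which changes test, filter and scaling together, and those of Rgs10 and Rgs19 when single libraries were left out. Rgs9 in KO against control IELp passed with limma on log2(CPM + 1) (adjusted p = 0.0467) and without KO replicate 3 (0.0431). Results that had not passed changed sign in 14 values. These were Rgs18 in KO against control IELp (-0.0225 with limma on log2(CPM + 0.1), and -0.112, -0.0803, -0.157 and -0.125 without control replicate 1, control replicate 2, KO replicate 1 and KO replicate 3) and Rgs11 in IEL against control IELp (-0.0929 and -0.133 with limma, -0.106 without IEL replicate 2). In splenocytes against IEL both limma fits gave Rgs3 0.000319, and Rgs14 had 0.0391 and 0.0394, and in splenocytes against KO IELp Rgs10 was 0.0699 without KO precursor replicate 2 and 0.0655 without splenocyte replicate 2. With single libraries left out, Rgs18 ranged from -0.157 to 0.477, Rgs11 from -0.106 to 0.507 and Rgs10 from -0.0685 to 0.0699 in these comparisons. The causes were not tested. The correlations of the deviations of same-numbered replicates were between -0.055 and 0.135, and those of differently numbered replicates between -0.129 and 0.102. With so few libraries these values cannot settle whether same-numbered replicates belong together. With the replicate block the counts of members called were 4, 9, 8, 8 and 8. Depth limits Rgs18 and, in splenocytes, Rgs9 (46 counts over 3 libraries).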

Other observations

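Among other proteins with an RGS or RGS-like domain, 9 were tested. Between IEL and control IELp 6 were higher and 1 lower. Arhgef12, which answers to the alpha subunits Gna12 and Gna13, was at 18.6 ± 1.36 CPM in IEL against 6.77 ± 0.889 in control IELp (SD, n = 3; 3.23-fold, edgeR adjusted p = 3.27e-06). Its relative Arhgef11 was at 0.455 ± 0.303 CPM in IEL against 7.54 ± 0.698 (14.3-fold lower, edgeR adjusted p = 1.29e-05). Arhgef1, the abundant member of this group in lymphocytes, was 1.10-fold higher in KO than in control IELp (edgeR adjusted p = 0.0374) and 1.37-fold higher in KO splenocytes than in IEL (edgeR adjusted p = 2.08e-05). Between splenocytes and IEL 3 were higher and 4 lower.

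Proteins that bind or fold Gi subunits included Gpsm2, a GoLoco protein of the mitotic spindle, at 14.2 ± 0.519 CPM in IEL against 35.9 ± 2.47 in control IELp (2.15-fold lower, edgeR adjusted p = 7.76e-06). Ric8a, a chaperone of alpha subunits, was 1.57-fold higher in IEL than in control IELp (edgeR adjusted p = 6.39e-06). Of 7 such genes tested in that comparison, 3 were higher and 2 lower.

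Rgs3 and Rgs10 also overlap other annotated genes. Gm11209, antisense to Rgs3, was at 1.96, 1.09, 2.23 and 2.81 CPM on average in control IELp, KO IELp, IEL and splenocytes, and Gm15503, on the strand of Rgs10, at 0.646, 0.175, 0.0643 and 0.313.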
